A study of Mus musculus with 12 samples.

Results

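Vascular smooth muscle cells of male mice, grown with PBS and without cobalt chloride, were compared between cells with intact Hif1a alleles flanked by loxP sites (Hif1afl/fl, called floxed here) and cells with a smooth-muscle-specific disruption of Hif1a (Hif1a△SMC, called deleted). The arrays were taken by their titles: 3 floxed and 3 deleted arrays, which is 6 of the 12 arrays of the series. The other 6 arrays hold the same genotypes treated with 150 µM CoCl2 for 24 h, where the PBS cells received an equal volume of PBS for 24 h. All cells grew at 37 °C and 5% CO2 in smooth muscle medium with 10% fetal bovine serum and 1% smooth muscle growth supplement. The labels name neither the Cre line or promoter that drives the disruption nor the age of the mice. Nothing in them ties an array to its own animal or culture dish, and the p-values below speak only of spread among these arrays, part of which could be technical.

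Hif1a encodes HIF-1 alpha, the subunit of the hypoxia-inducible factor HIF-1 whose level follows oxygen. In oxygenated cells the protein is hydroxylated by prolyl hydroxylases, bound by the von Hippel-Lindau protein and degraded. When it is stable it pairs with ARNT and binds short DNA elements with the core ACGTG or GCGTG beside genes of glycolysis, angiogenesis and iron handling. CoCl2 stabilises the protein chemically, and the comparison under PBS asks what the disruption of Hif1a changed without it.

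The array mostly reports noncoding transcripts. Of its 97836 probes, 28773 carry NONCODE identifiers, 12146 predicted and 871 curated RefSeq noncoding accessions, 15675 RIKEN clone names and 373 ultraconserved elements. A further 39027 have Agilent catalogue names that no table used here pairs with a gene. No probe is named for Hif1a, so the deletion itself could not be checked, and none of the 6 defining smooth muscle markers had a named probe, so the labelled cell type could not be checked by them either. The markers fixed for endothelial cells, fibroblasts, macrophages, lymphocytes and adipocytes had no named probe. The single pericyte marker with a feature, a clone at Rgs5, differed by -0.09 on the log2 scale (SE 0.40, limma adjusted p = 0.897).

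Levels below are log2 of the processed signal minus the 75th percentile of the array, so 0 marks a bright probe and most probes lie below it. The 75th percentile was 9.19, 9.40 and 9.52 on the floxed arrays and 9.02, 9.03 and 9.16 on the deleted arrays. Between 69.9% and 74.6% of probes were well above background on the 6 arrays. All floxed arrays lay on slide 1, deleted arrays 1 and 2 on slide 2 and deleted array 3 on slide 3, so no slide held both genotypes under PBS and slide and genotype cannot be told apart within these 6 arrays. Deleted array 3 stood further from the floxed arrays: its correlation with them was 0.946 to 0.950 over all probes tested, against 0.970 to 0.979 for the other deleted arrays. Deleted arrays 1 and 2, which shared a slide, correlated at 0.995 with each other and at 0.981 and 0.977 with deleted array 3. The floxed arrays, all on slide 1, correlated at 0.978 to 0.983 with each other.

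Of 70089 features tested, 1035 (1.48%) passed an adjusted p of 0.05 in limma fitted on all 12 arrays, 376 (0.536%) higher and 659 (0.94%) lower in deleted cells. The features that passed lay close to the threshold: the median adjusted p was 0.0466, 20 were below 0.03 and 1 was below 0.01. Of the 1035, 585 (0.835% of all features) differed by at least 2-fold, and the smallest difference that passed was 0.60 on the log2 scale. Without adjustment 28.6% of features had p below 0.05. The 2 groups of arrays did not overlap for 48.0% of features and for all 1035 that passed. The median difference over all features was 0.02.

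The count rests on single arrays. Leaving out a floxed PBS array gave 3, 2 or 374 features and leaving out a deleted PBS array gave 1, 34 or 2, with deleted array 1 the one that left 1. Without floxed CoCl2 array 2 or 3, which enter only through the shared estimate of spread, 27 and 19 features passed. The other CoCl2 arrays went the other way: 3666 passed without floxed CoCl2 array 1. Without deleted CoCl2 array 1, 2 or 3 the counts were 2765, 3160 and 1643. The fit on the 6 PBS arrays alone called 8790, and with slide as a random block 11 passed.

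**Figure D1:**
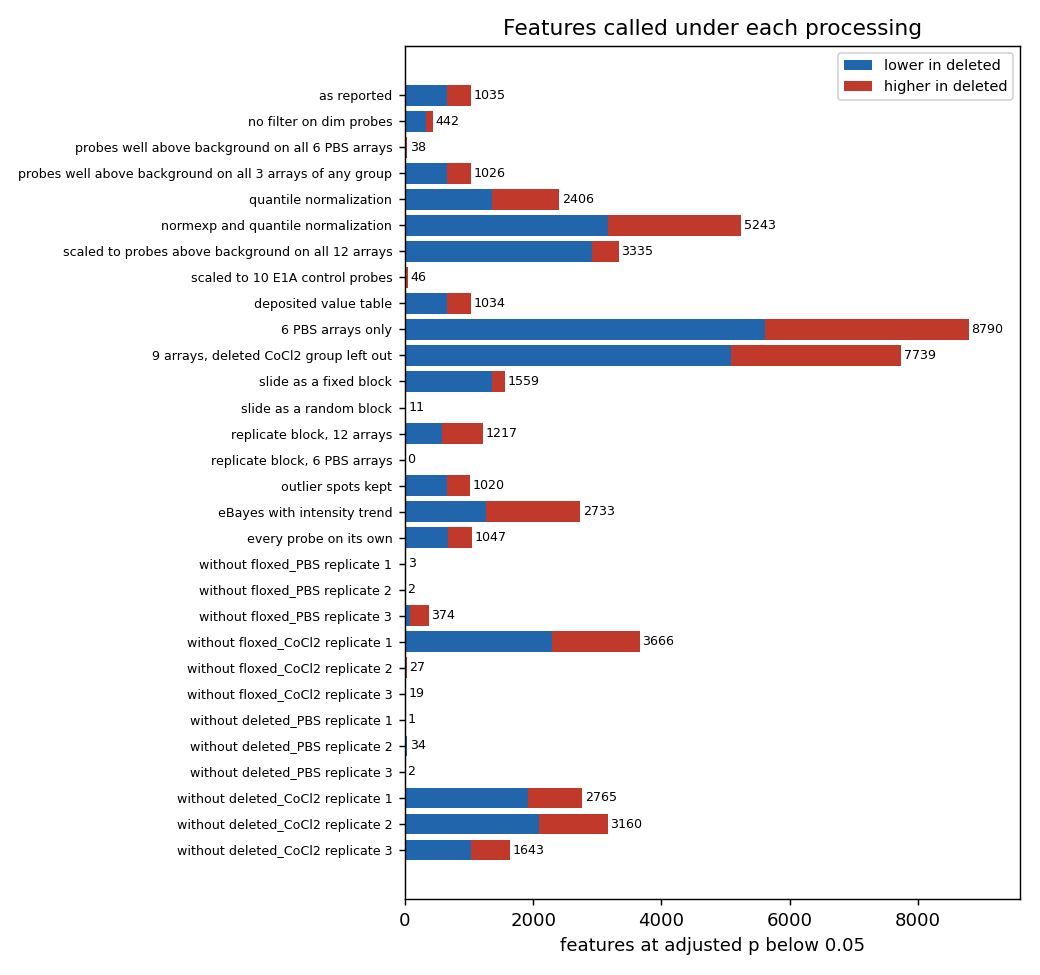
Number of features at an adjusted p below 0.05 for the deletion under PBS (x axis, a linear scale) in the fit reported here and in each alternative processing (y axis), split into lower (blue) and higher (red) in deleted cells. The count runs from 0 with a replicate block on 6 arrays to 8790 with the 6 PBS arrays alone, against 1035 as reported.

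Direction followed signal. In the lowest quartile of mean signal 353 were lower and 91 higher, with a median difference of -0.18, and in the highest quartile 60 were lower and 112 higher, with a median of 0.22. Of the 1035 features that passed, 112 were well above background in no deleted array and 39 in no floxed array. The filter let these in only through their brighter group, so their direction was set by the filter. The predicted RefSeq noncoding transcripts had the lowest median among the larger classes (-0.26, with 121 lower and 24 higher of 6809), and it stayed below 0 in the highest quartile (-0.07). Agilent catalogue probes had a median of 0.14, with 210 higher and 206 lower of 30849. NONCODE transcripts had 85 higher and 228 lower of 19853, with a median of -0.09. Among RIKEN clones 55 were higher and 83 lower of 11300. In either direction 1.35% of Agilent probes, 1.58% of NONCODE transcripts and 1.22% of RIKEN clones passed, near the 1.48% of all features. Of predicted RefSeq transcripts 2.13% passed. Over all features 0.536% were higher and 0.94% lower. The directions move with the processing. With the 75th percentile taken over probes detected on all 12 arrays 12.6% of 3335 calls were higher, with scaling to E1A control probes 76.1% of 46 were higher, and as reported 36.3% were. With an intensity trend in eBayes 53.6% of 2733 calls were higher, and with all 6 PBS arrays required above background 19 of 38 were. The first of the scalings moved the median of all features to -0.12 and the second to 0.23.

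**Figure D2:**
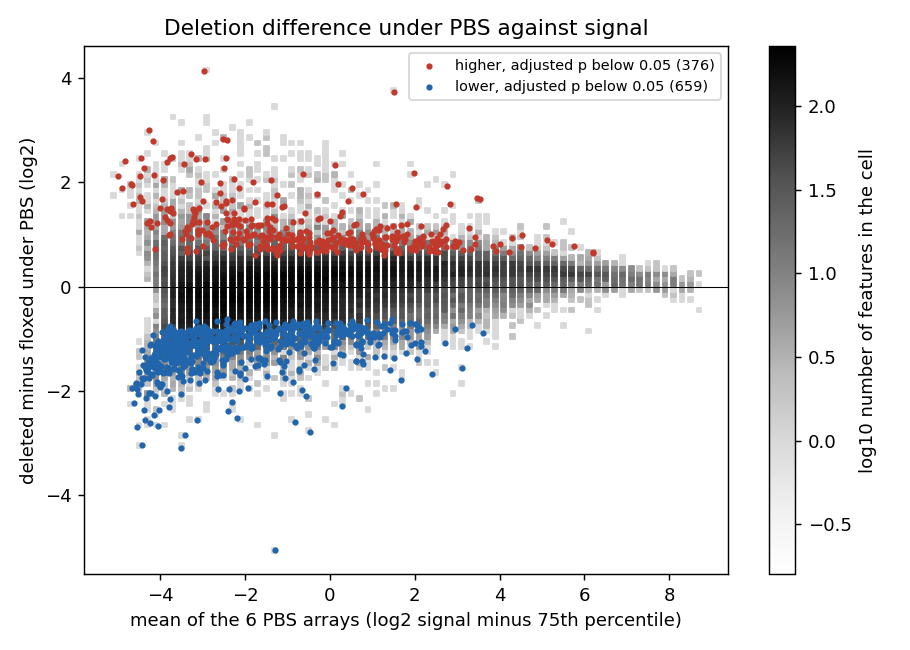
Difference between deleted and floxed cells under PBS (y axis, log2) against the mean level of the 6 arrays (x axis, log2 signal minus the 75th percentile); grey cells count all features and coloured points are those that passed. The 659 lower features crowd at the dim end, and the 376 higher ones reach the bright end.

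The 6 features with an established gene symbol matched by accession that passed were all lower in deleted cells, out of 157 tested (percent called over all features, 1.48%). They were Scnn1b, Dlx4os, Serpina3h, Kif4-ps, Pmis2 and Cyp2d13. The probes report noncoding records of these genes, also for Scnn1b, which encodes the beta subunit of the epithelial sodium channel. RefSeq promoter sequences (GRCm38.p6, 250 bases before to 50 after the start) are given for Scnn1b, Dlx4os and Pmis2. Those of 4833412C05Rik and Gm39549 are added, 2 picked from the 6 RefSeq transcripts with a symbol that were higher. They are shown because these genes carry the changes by name, with matches of ACGTG or GCGTG on either strand in capitals:
Scnn1b, chr7:121864788-121865087, plus strand: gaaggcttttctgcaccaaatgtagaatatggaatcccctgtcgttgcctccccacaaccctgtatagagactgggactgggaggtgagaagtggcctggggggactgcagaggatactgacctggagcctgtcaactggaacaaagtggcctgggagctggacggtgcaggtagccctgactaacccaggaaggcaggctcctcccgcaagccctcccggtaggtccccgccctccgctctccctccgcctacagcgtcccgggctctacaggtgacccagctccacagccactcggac
Dlx4os, chr11:95144803-95145102, plus strand: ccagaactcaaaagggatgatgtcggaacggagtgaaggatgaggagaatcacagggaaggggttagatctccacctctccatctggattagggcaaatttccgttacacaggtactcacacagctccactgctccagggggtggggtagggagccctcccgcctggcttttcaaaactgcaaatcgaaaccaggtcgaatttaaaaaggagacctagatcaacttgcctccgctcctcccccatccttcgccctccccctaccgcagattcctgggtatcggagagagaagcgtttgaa
Pmis2, chr7:30671556-30671855, minus strand: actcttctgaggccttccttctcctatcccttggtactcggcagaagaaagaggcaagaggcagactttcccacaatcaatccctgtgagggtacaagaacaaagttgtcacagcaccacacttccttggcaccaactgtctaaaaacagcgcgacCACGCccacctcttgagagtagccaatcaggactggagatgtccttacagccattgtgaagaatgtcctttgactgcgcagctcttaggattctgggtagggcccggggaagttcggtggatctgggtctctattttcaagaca
4833412C05Rik, chr7:67803447-67803746, minus strand: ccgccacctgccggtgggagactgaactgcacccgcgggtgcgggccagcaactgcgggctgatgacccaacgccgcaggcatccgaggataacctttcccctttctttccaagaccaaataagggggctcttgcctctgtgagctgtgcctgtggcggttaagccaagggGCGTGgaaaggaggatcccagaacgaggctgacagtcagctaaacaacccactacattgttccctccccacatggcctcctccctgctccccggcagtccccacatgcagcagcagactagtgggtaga
Gm39549, chrX:167170039-167170338, minus strand: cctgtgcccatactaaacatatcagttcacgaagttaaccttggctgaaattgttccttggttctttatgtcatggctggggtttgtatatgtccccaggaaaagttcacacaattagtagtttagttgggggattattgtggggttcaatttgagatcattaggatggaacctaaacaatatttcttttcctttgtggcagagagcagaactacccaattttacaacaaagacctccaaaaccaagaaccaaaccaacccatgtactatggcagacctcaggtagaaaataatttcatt

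Pmis2 and 4833412C05Rik each held 1 match and the other 3 promoters held none. Over all 32851 promoters from RefSeq, 43.8% held a match, and 7.15% held CACGTG, the palindrome of E-box factors that contains ACGTG on both strands. Of the RefSeq-named features that passed, 41 had a promoter and 21 of these (51.2%) held a match at some start. The share was 37.8% of the 1728 tested ones with a promoter and 46.7% of all 27025 genes with one. The difference between these shares was not tested. A match is a description of letters in this window, and no match says nothing of binding elsewhere.

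The level of Scnn1b was 1.41, 1.29 and 1.60 in floxed arrays and 0.32, 0.42 and -0.33 in deleted arrays. All deleted arrays lay below all floxed arrays, as in every lower feature that passed, and the third deleted array was lowest. The difference was -1.30 (SE 0.28, limma adjusted p = 0.0482). Dlx4os, the transcript antisense to the homeobox gene Dlx4, lay at -2.97, -2.62 and -2.99 in floxed arrays and at -4.59, -3.75 and -4.50 in deleted arrays, of which 1 was well above background. It was lower in every deleted array (difference -1.42, SE 0.30, limma adjusted p = 0.0479). Serpina3h, a pseudogene of the Serpina3 cluster of protease inhibitors, lay at -2.48, -3.17 and -3.28 against -4.47, -3.92 and -4.76, with 1 deleted array above background (difference -1.41, SE 0.29, limma adjusted p = 0.0467).

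Kif4-ps, a pseudogene of a mitotic kinesin, had levels of -0.92, -1.26 and -0.88 in floxed arrays and -2.09, -1.90 and -2.14 in deleted arrays. The groups were tight, and that they did not overlap was a condition of the choice (difference -1.03, SE 0.21, limma adjusted p = 0.0467). Pmis2, a locus known for a sperm protein, fell by 1.01 (SE 0.22, limma adjusted p = 0.0484), from -1.61, -1.81 and -1.97 to -2.84, -2.45 and -3.13. Cyp2d13, a cytochrome P450 pseudogene, fell by 0.95 (SE 0.17, limma adjusted p = 0.0438), from -1.40, -1.54 and -1.68 to -2.39, -2.69 and -2.40. Each of the 6 lost its call in the fit with slide as a random block.

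No feature with an established symbol matched by accession passed in the upward direction. Short of the threshold were Wincr1, a noncoding RNA known from Wnt signalling (difference 0.81, limma adjusted p = 0.0534), Trim52 (0.74, limma adjusted p = 0.0546) and Hnrnpa1, whose protein binds RNA in splicing (0.78, limma adjusted p = 0.0622). Wincr1 had levels of 0.79, 0.59 and 0.94 in floxed arrays and 1.72, 1.37 and 1.67 in deleted arrays. These did not overlap, as for 48.0% of all features. Vmn2r-ps54 (0.96), Vmn1r-ps79 (1.26), Pisd-ps3 (0.66), Snhg16 (0.76) and the file-named linc1257 (0.72) also had higher means without passing, with limma adjusted p from 0.0621 to 0.0666. On the lower side Sox1ot, the transcript overlapping Sox1, stood just outside (-1.30, limma adjusted p = 0.0512), and so did Zfp286os (-0.98, limma adjusted p = 0.0576).

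Among 555 clones at named loci, 9 passed (1.62%, against 1.48% of all features), 5 lower and 4 higher. A clone reports a cDNA assigned to the locus and need not follow the messenger RNA of the gene. At C8b, a subunit of the complement attack complex, the clone lay at -2.61, -3.24 and -2.98 in floxed arrays and at -5.12, -4.84 and -6.69 in deleted arrays. No deleted array was well above background there, so the clone was at least 2.66-fold lower (fitted difference -2.61, limma adjusted p = 0.0318). The clone at Pde11a, which encodes a phosphodiesterase of cyclic nucleotides, went from -1.99, -2.39 and -2.09 to -3.72, -3.46 and -4.82, with 2 deleted arrays above background (-1.84, SE 0.36, limma adjusted p = 0.0466). The clone at Topbp1, a protein of DNA replication checkpoints, was bright in every array and fell by 0.76 (SE 0.15, limma adjusted p = 0.0467), from 2.44, 2.44 and 2.49 to 1.77, 1.84 and 1.48. Clones at Dpf3, a chromatin reader, and Sox6os were lower by 1.14 and 0.90 (limma adjusted p = 0.0467 and 0.0466), and the Dpf3 clone, not well above background in any deleted array, was at least 1.74-fold lower.

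The clone at Dst, which encodes the cytoskeletal linker dystonin, rose by 1.09 (SE 0.19, limma adjusted p = 0.0438). It lay at -3.33, -3.55 and -3.77 in floxed arrays and -2.37, -2.50 and -2.50 in deleted arrays. The clone at Gprasp1, a protein that sorts G protein-coupled receptors, rose from 1.1, 0.92 and 1.18 to 2.11, 1.76 and 2.45 (1.04, SE 0.20, limma adjusted p = 0.0466). Clones at Mpzl3, a membrane protein gene, and Ubxn2b, whose protein works with the ATPase p97, rose by 0.77 and 0.67 (limma adjusted p = 0.0479 and 0.0493). In all 4 the deleted arrays lay above the floxed arrays, which was a condition of their choice. Clones at Tex10 (0.89), Polr1a, the largest subunit of RNA polymerase I (0.98), Top2b, a DNA topoisomerase (1.09), and Vps13a (0.60) differed upward without passing (limma adjusted p from 0.0538 to 0.0613). Clones at Myom1, a protein of the muscle M-band (-1.41), Bnip5 (-0.78) and Rasal3 (-1.01) differed downward without passing (limma adjusted p from 0.0521 to 0.0563).

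**Figure D3:**
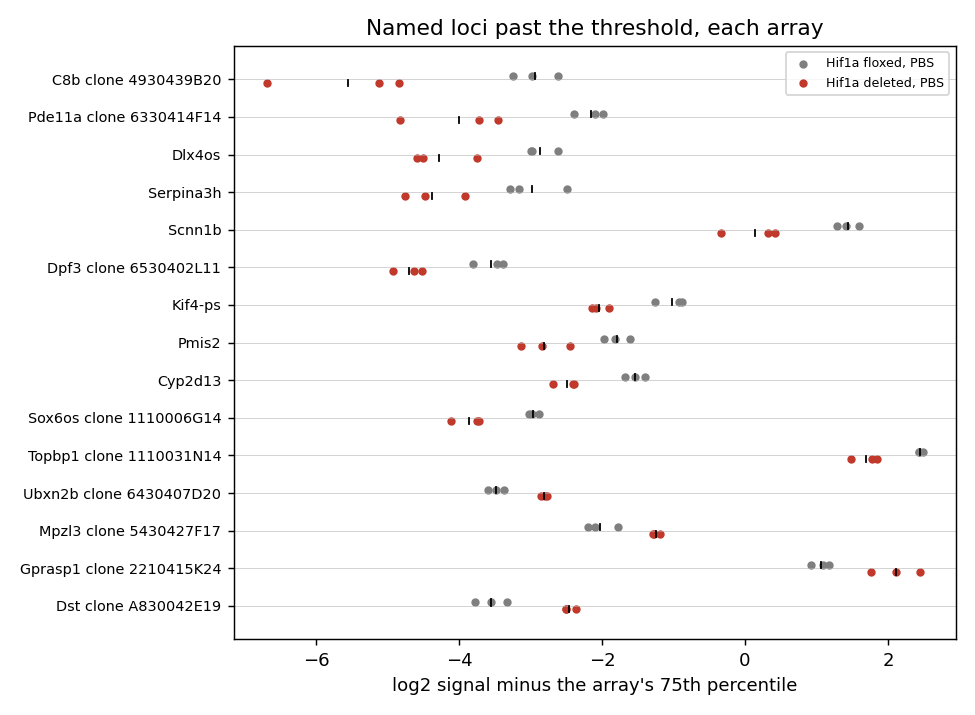
Level on each array (x axis, log2 signal minus the 75th percentile) of the 15 features that passed at genes with established symbols, 6 by accession and 9 by clone; grey points are 3 floxed arrays, red points 3 deleted arrays and black ticks the group means. The groups do not overlap for any of them, a condition of the choice that all 1035 features that passed met. The lower features outnumber the higher ones by 11 to 4.

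With predicted genes included, 63 RefSeq features with a symbol passed of 2444 (2.58%, against 1.48% of all features), 57 lower and 6 higher. Lower in deleted cells was Gm34846, a predicted noncoding RNA whose nearest annotated coding gene is the Wnt pathway gene Nkd1. It lay at 1.03, 1.15 and 0.62 in floxed arrays and at -1.90, -1.05 and -2.63 in deleted arrays, well above background on all 6 (difference -2.79, SE 0.42, limma adjusted p = 0.034). Among the 6 that were higher was Gm39549, whose nearest annotated coding gene is the actin-binding gene Tmsb4x: -2.94, -4.61 and -3.47 in floxed arrays, 2 of them above background, and -0.78, -1.44 and -1.44 in deleted arrays (difference 2.46, SE 0.49, limma adjusted p = 0.0467). 4833412C05Rik, with Synm, a gene of muscle intermediate filaments, as nearest coding gene, lay at -4.75, -5.07 and -4.56 and was not above background in any floxed array. It reached -3.16, -3.56 and -2.63 in deleted arrays, at least 2.00-fold higher (fitted difference 1.68, limma adjusted p = 0.0438). Gm38787, a transcript that overlaps Cald1, the caldesmon gene of contractile smooth muscle, rose from -0.79, -1.40 and -1.09 to -0.08, -0.09 and 0.05 (1.06, SE 0.23). The clone at Cald1 itself lay at 2.51, 2.25 and 2.45 against 3.22, 2.95 and 3.03, a difference of 0.67 that did not pass (limma adjusted p = 0.0706).

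Genes listed as targets and cofactors of HIF-1 were thinly covered. Of 58 genes on the target list, 1 had a probe outside the array's labelling controls, the antisense transcript Gssos2. It differed by -0.33 (SE 0.40, limma adjusted p = 0.613), and whether HIF-1 acts on it was not tested. Of 15 cofactors 1 had a probe, a clone at Ep300 (-0.30, limma adjusted p = 0.23). RefSeq noncoding transcripts that overlap a listed target gene, or have it as their nearest coding gene at any distance, numbered 16, and 1 passed, which was lower (6.25%, against 1.48% of all features in either direction; a count of 1 shows nothing about the list). This was Gm40662 beside the phosphofructokinase gene Pfkp (-1.17, SE 0.25), at -1.77, -2.08 and -1.79 in floxed arrays and -2.77, -2.74 and -3.64 in deleted arrays. Lincred2, whose nearest coding gene is the glucose transporter gene Slc2a1, was bright in all arrays and differed by -0.62 (SE 0.17) without passing. Gm15283 beside Hif1a itself differed by -0.05 (SE 0.30, limma adjusted p = 0.92), and Gm7550 beside the prolyl hydroxylase gene Egln3 by -0.13.

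The array's own labelling controls include probes for Pgk1, a glycolytic enzyme and known HIF-1 target, and for Gapdh. Pgk1 at its 3′ probe lay at 3.83, 3.66 and 3.94 in floxed arrays and at 4.48, 4.29 and 4.47 in deleted arrays. The deleted arrays lay above the floxed arrays, by 0.60 (SE 0.16, limma adjusted p = 0.0612; two-sided exact permutation p = 0.1, the smallest that 3 against 3 allows). The 5′ probe of Pgk1 differed by 0.36, and Gapdh by 0.25 at its 3′ and 0.19 at its 5′ probe, none past the threshold. The signal of the 3′ probe of Pgk1 minus that of its 5′ probe, which moves with RNA quality and labelling, did not overlap between the groups: 2.83, 2.79 and 2.84 in floxed arrays against 3.02, 3.08 and 3.11 in deleted arrays (exact permutation p = 0.1). The same measure for Gapdh overlapped, with means of -2.32 and -2.25 (exact permutation p = 0.4). The part of these values in the differences between genotypes was not tested.

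Other lists had few measured members. Of 27 features at established long noncoding RNAs, 1 passed, Dlx4os (3.70%, against 1.48% of all features). Meg3 differed by 0.12 (SE 0.43), Carmn, a regulator of the contractile state, by 0.18 (SE 0.21), Norad by 0.28 (SE 0.17) and Kcnq1ot1 by -0.78 (SE 0.20, limma adjusted p = 0.0586). Hottip differed by -0.94 (SE 0.25, limma adjusted p = 0.0615), and its groups did not overlap, as for 48.0% of all features. The small differences of Airn (0.07) and Trp53cor1 (-0.17) turned sign with the scaling. Of 4 contractile features, 3 extracellular matrix features, 2 of oxidative stress and 1 of MAP kinase feedback none passed. The last, a clone at Dusp4, a phosphatase of MAP kinases, was bright at 2.70, 2.82 and 3.61 in floxed and 4.04, 4.00 and 4.26 in deleted arrays (1.06, SE 0.28, limma adjusted p = 0.0648). The remaining long noncoding RNAs lay within their spread or short of the threshold. Those with lower means were Ftx (-0.21), Mhrt (-0.40), Fendrr (-0.23), Tunar (-0.13) and a clone at Mirt1 (-0.34), beside a second Mirt1 clone at 0.08. Higher means were found for Firre (0.45), Snhg5 (0.51), Mir22hg (0.33), Rian (0.35, with a clone at 0.70), Lncpint (0.19), Snhg8 (0.20), Snhg18 (0.06), Peg13 (0.03), an Airn clone (0.18) and 2 clones at Mir100hg (0.03 and 0.39). The small RNA genes Rpph1, the RNA of ribonuclease P, and Scarna13 differed by 0.38 and -0.34. Both clones at Synpo2, an actin-binding protein of smooth muscle, had lower means (-0.29 and -0.08). Matrix clones at Lamb1 (0.70), Col11a1 (0.51) and Fbln2 (not above background in any floxed array, at least 1.1-fold) had higher means, and so had clones at Atg12 (0.23) and Cdk2 (0.08), while the clone at Sod1 was level to within its error (0.01, SE 0.27). In the cell cycle list, with 3 features tested, Kif4-ps passed and a clone at Kif2c differed by -0.62 without passing. In the inflammation list, with 2 features tested, Serpina3h passed and Mx2 differed by -0.33. Over all features 1.48% passed. The lists and their members were chosen with earlier results of these data known. The calls of Kif4-ps, Serpina3h and Dlx4os therefore show nothing about their lists.

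The single feature with an adjusted p below 0.01 was the RIKEN clone A130079I05, without a matched gene. It lay at -0.58, -0.38 and -0.15 in floxed arrays and at 3.49, 3.76 and 2.86 in deleted arrays, a difference of 3.74 (SE 0.26, limma adjusted p = 0.000636). The same clone differed by 3.91 under CoCl2. It passed in 28 of 29 alternatives, all but the replicate block on the 6 PBS arrays. The Agilent probe A_51_P387608 fell, lying at 0.89, 1.36 and 1.44 in floxed arrays and -5.35, -4.52 and -1.60 in deleted arrays, of which 1 was above background (-5.05, SE 0.93, limma adjusted p = 0.0438). It differed by -5.16 under CoCl2. A_51_P378789 rose from -5.27, -3.65 and -6.18, none above background, to -0.50, -0.08 and -2.09, at least 8.31-fold higher (limma adjusted p = 0.0342). Among the other Agilent probes A_51_P305052 and A_52_P151240 were at least 4.34-fold and 2.56-fold higher, and A_55_P2010063 and A_55_P2136935 at least 4.77-fold and 5.17-fold lower. Each was well above background in no array of its dimmer group.

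The 11 features that also passed with slide as a random block were chosen for a closer description after their values were seen. Besides A130079I05 they include 4 rises and 6 falls. D030054J08, a RIKEN clone, lay at -1.81, -2.08 and -1.65 in floxed arrays and at -0.22, -0.24 and -0.42 in deleted arrays (1.55, SE 0.16). NONMMUT040775, a NONCODE transcript, lay at -0.01, 0.09 and 0.13 and at -1.56, -1.45 and -1.61 (-1.61, SE 0.20). A_55_P2025937 was at -1.32, -1.36 and -1.42 and at -2.47, -2.35 and -2.71 (-1.15, SE 0.14). In each of these the arrays of a group stood close together, which a choice by low adjusted p favours. The rises of NONMMUT035068 (2.05, SE 0.24), A_55_P2070331 (2.44, SE 0.24) and A_51_P404139 (2.47, SE 0.32) and the falls of NONMMUT026472 (-2.36, SE 0.29), A_52_P408315 (-1.72, SE 0.19), A_55_P1994212 (-1.54, SE 0.16) and XR_886751 (-1.53, SE 0.18) complete the set. A_55_P2070331 was above background in 1 floxed array, A_51_P404139 was not above background in floxed arrays and 3 of the falls were not above background in deleted arrays, so the groups bound them at 1.85-fold and at 2.22-fold, 1.93-fold and 2.07-fold or more.

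The identifiers named by rule in the other classes, with the largest fitted changes, mostly rose out of, or fell into, the background. Among ultraconserved elements, stretches identical between distant genomes, 3 of 194 passed (1.55%, against 1.48% of all features) and all were lower. uc.mouse.156 lay at -2.06, -1.62 and -1.91 in floxed arrays and -2.67, -2.75 and -2.67 in deleted arrays (-0.84, SE 0.16), uc.mouse.38 differed by -1.09 (SE 0.19), with 1 deleted array above background. uc.mouse.118 was above background in no deleted array and was at least 1.57-fold lower. Of 530 Ensembl transcripts 7 passed (1.32%, against 1.48% of all features), all lower, among them ENSMUST00000187966 (at least 1.79-fold), ENSMUST00000190043 (at least 2.13-fold) and ENSMUST00000187957 (-1.22, SE 0.26).

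Among NONCODE transcripts NONMMUT069223 was measured on all 6 arrays, at 0.09, 0.44 and 0.90 in floxed and -1.64, -1.76 and -2.95 in deleted arrays (-2.59, SE 0.47). NONMMUT048940 and NONMMUT049375 were well above background in no deleted array (at least 2.70-fold and 3.12-fold lower). NONMMUT065445 and NONMMUT017666 were so in no floxed array (at least 1.41-fold and 1.98-fold higher). The RIKEN clones E130106K19 and E130019P11 rose by 2.83 (SE 0.58) and 2.81 (SE 0.57), with 1 floxed array above background for each. C230070I11 (-2.22, SE 0.47) and 2010110G14 (-2.56, SE 0.52, with 2 deleted arrays above background) fell. XR_880693, a predicted RefSeq transcript with no symbol here, rose from -0.48, -0.73 and -1.16 to 1.05, 0.86 and 1.63 (1.97, SE 0.26, limma adjusted p = 0.0271). Its class also held XR_873223 (at least 1.34-fold higher), XR_881664 (at least 2.22-fold lower) and Gm36565, with the growth factor binding gene Igfbp3 as nearest coding gene (at least 2.11-fold lower). Of 14 features named by gene in the files themselves 0 passed in limma, and 5 had an unadjusted p below 0.05. Among curated RefSeq transcripts 1700036G14Rik (-1.77, SE 0.39), 9330188P03Rik (-1.50, SE 0.33) and 1700008K24Rik (at least 1.59-fold) were lower, and 9330102E08Rik was higher (1.14, SE 0.22).

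**Figure D4:**
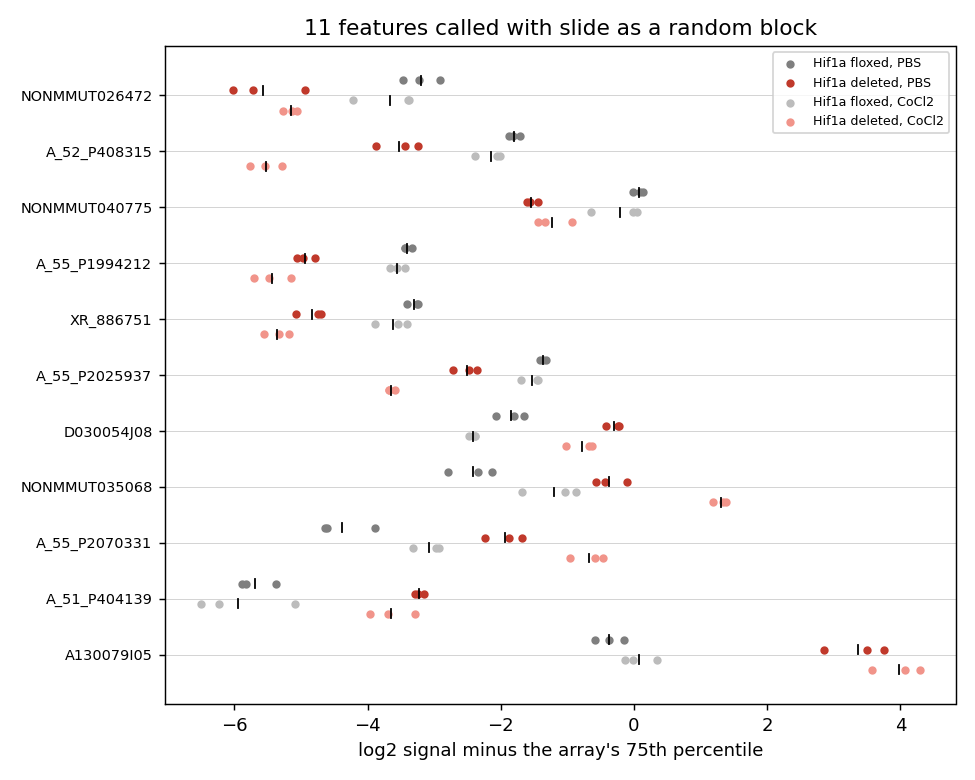
Level of the 11 features that passed with slide as a random block (x axis, log2 signal minus the 75th percentile) on all 12 arrays, by genotype and treatment; black ticks are the means of 3 arrays. Under PBS the deleted arrays lie apart from the floxed arrays in every feature, as in all features that passed. Under CoCl2 the deleted mean differs from the floxed mean in the same direction in each. No slide held both genotypes under CoCl2 either.

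The same features were followed in the cells given CoCl2, where the deletion contrast uses 6 other arrays but the same estimate of spread and the same order of slides, with floxed cells on the earlier slides. There 68.0% of all features passed, 32.1% higher and 35.8% lower. Of the 376 features higher under PBS, 357 were also higher past the threshold under CoCl2 and 2 were lower. Of the 659 lower features, 644 were also lower past the threshold and 0 higher. The median difference of the higher features was 0.96 under PBS and 1.20 under CoCl2, and of the lower features -1.1 and -2.02. The difference of the deletion effects itself passed for 20.6% of all features, for 19 of the 376 and for 338 of the 659. In 332 of these 338 the fall was larger under CoCl2, where 17.7% of all features had a called difference in that direction. The deleted CoCl2 arrays had fewer probes above background (51.9% to 58.5%) than the 6 PBS arrays, and of the 659 lower features 415 were above background in none of them, so their falls under CoCl2 are fitted values at background. The part of this in the larger falls was not tested.

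**Figure D5:**
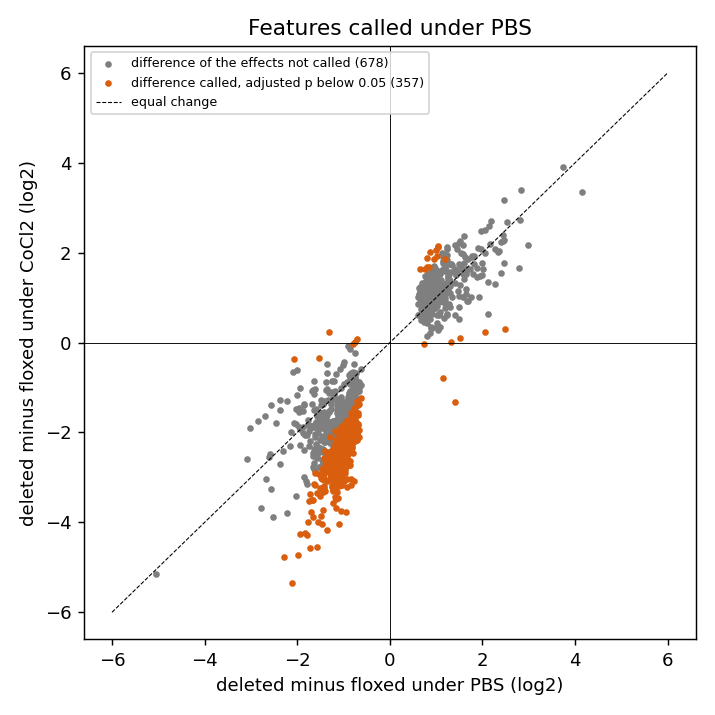
Deletion difference under CoCl2 (y axis, log2) against that under PBS (x axis, log2) for the 1035 features that passed under PBS; orange marks those whose difference of the effects passed. Points on the dashed line changed equally. Among the 659 lower features 332 orange points lie below the line, with larger falls under CoCl2, and 6 lie above it.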

How the data were processed

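The arrays are custom Agilent single-colour arrays of cyanine-3 labelled total RNA (0.5 µg), per the labels' protocols; another label field names biotin. The authors' deposited scanner files hold spot intensity extracted with Feature Extraction 11.5.1.1, per the file headers, while the submitters' processing notes name 9.1. The deposited value table of log2 intensity was used only as an alternative. Build mm9 is named for the design, per the file headers; sequences and names are from RefSeq tables of GRCm38.p6, in which 3816 of 12146 predicted and 840 of 871 curated RefSeq probes matched a symbol by accession and 1261 of 15675 RIKEN clones by name. Spots marked as outliers were left out, spots of a probe averaged as log2 of the processed signal, and the 75th percentile of each array subtracted. A probe was kept if all 3 arrays of either PBS group flagged it well above background (70211 probes). Among probes matched to a symbol by accession only the brightest per symbol was kept, which gave 70089 features. Clones and all other probes each stayed a feature of their own. The deletion under PBS was tested with limma 3.58.1 in R 4.3.3 on 12 arrays (8 residual and 3.57 prior degrees of freedom), with Benjamini-Hochberg adjustment over all features; the script was tested on simulated data. Bounds set the brighter group's mean against the lowest signal well above background.

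Genes were named by rule: the 15 largest changes per direction past the threshold among established symbols (filled to 8 by lowest p), 8 among clones, 3 per other class, and every list member. Those chosen as past the threshold also had to have groups of arrays that do not overlap. The members and lists were chosen with earlier results of these data known. The scanner files used here hold median rather than mean signal, so normexp (offset 50) used the median. Promoters of Cyp2d13, Kif4-ps and Serpina3h were not used here. Alternatives covered filters, scaling, blocks and left-out arrays; the fit without the deleted CoCl2 group was chosen after seeing the data.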

Additional observations from a re-analysis of the deposited data

Results flagged for a closer look

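The named results whose deletion effect differed between CoCl2 and PBS, by limma's test of that difference at an adjusted p below 0.05, are given as values. Except for Scnn1b and the Bnip5 clone, measured on 3, and Kif4-ps and Mhrt, on 1, the features with a larger fall were above background in none of the deleted CoCl2 arrays, so the difference is a fitted value at background and not an exact size. The fall was larger under CoCl2 by -1.74 for Scnn1b, -1.32 for Kif4-ps, -1.66 for A_52_P408315, -0.97 for A_55_P2025937, -2.22 for 1700036G14Rik, -2.05 for ENSMUST00000187957 and -1.11 for uc.mouse.38. Among features that did not pass under PBS the difference was -1.50 for Sox1ot, -1.54 for Zfp286os, -1.32 for Hottip, -1.89 for Mhrt, -1.49 for Mx2, and at clones -1.59 for Myom1, -1.39 for Rasal3 and -1.94 for Bnip5. The rise of the clone at Gprasp1 was larger under CoCl2 by 1.09. The NONCODE transcript NONMMUT009487 rose by 2.49 under PBS, where no floxed array was above background (at least 3.11-fold), and by 0.30 under CoCl2, a difference of -2.19 (limma adjusted p = 0.0292).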

How the results depend on the processing

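Of the 59 named results that passed, none changed sign in the alternatives run, but none kept its call in every alternative: all 59 lost it with a replicate block on the 6 PBS arrays. The count of 1035 features became 442 without the filter on dim probes, 38 for probes detected on all 6 PBS arrays, 2406 with quantile normalization, 5243 with normexp and quantile normalization, 3335 with scaling to probes detected on all 12 arrays, 46 with scaling to 10 E1A control probes, and 2733 with an intensity trend in eBayes. It was 8790 with the 6 PBS arrays alone, 7739 without the deleted CoCl2 group (chosen after seeing the data), 1559 with slide as a fixed block, in which 233 of the reported features remained, and 11 with slide as a random block. Leaving out single arrays gave 1 to 3666. The cause of these shifts was not tested. Deviations from the group means correlated at -0.16, 0.23 and -0.08 between same-numbered arrays, and at -0.14 to 0.22 between arrays of unlike number. With 3 arrays per group these values cannot decide whether the numbers pair the arrays. A replicate block gave 1217 features on 12 arrays, 52.7% of them higher. It gave 0 by limma on the 6 PBS arrays, where 24890 had an unadjusted p below 0.05.

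Results that turned sign were 16 of the 59 that had not passed. With scaling to E1A probes they were Ftx (0.0026), Trp53cor1 (0.048), Tunar (0.082), the Rgs5 clone (0.12) and the Synpo2 clone 1110069I04 (0.13). With scaling to probes detected on 12 arrays they were the clones at Sod1 (-0.13), Mir100hg (-0.10), Cdk2 (-0.052) and Mirt1 (-0.049), and Peg13 (-0.10), Snhg18 (-0.078), Airn (-0.058) and Meg3 (-0.0082). Airn was at -0.073 with quantile normalization and -0.032 after normexp, where its clone was at -0.063 and Tunar at 0.047. With slide as a fixed block Tunar was at 0.11 and clones at Rgs5 at 1.24, Sod1 at -0.57, Mir100hg at -0.17, Cdk2 at -0.15, Mirt1 at -0.091 and Atg12 at -0.37; with slide as a random block Rgs5 was at 0.11 and Sod1 at -0.067. Leaving out single arrays gave Ftx -0.41 to 0.075, Rgs5 -0.48 to 0.29, Synpo2 -0.25 to 0.014, Sod1 -0.059 to 0.077, Mir100hg -0.077 to 0.13, Peg13 -0.026 to 0.084, Snhg18 -0.055 to 0.17, Airn -0.13 to 0.20, Mirt1 -0.18 to 0.24, Meg3 -0.18 to 0.46, the Airn clone -0.035 to 0.32 and Rian -0.16 to 0.85.

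The number of arrays limits precision, and changes of probes near background are bounds.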
